A study of Caenorhabditis elegans with 2 samples.

Results

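Hsp70 and Hsp90 genes of the nematode Caenorhabditis elegans were examined for peaks of CEH-58, a homeodomain protein, in chromatin immunoprecipitation followed by sequencing (ChIP-seq). The 10 genes examined, of 19973 protein-coding genes on the nuclear chromosomes, were hsp-70, F44E5.4, F44E5.5, hsp-1, hsp-90, hsp-110, hsp-3, hsp-4, enpl-1 and hsp-6. They were selected on family membership and on measured values, since the high signal of the peak between F44E5.4 and F44E5.5 and the peak at hsp-90 were known when the list was drawn up. Those values are therefore given as a description, with no test. Every summit from 2 kb upstream of the annotated start to the end of each gene was collected from each of the 8 lists of peaks.

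Chromatin came from whole young adults of strain OP808 at 65 hours, in 2 biological replicates that form a single group. Per the labels, the worms had the unc-119(tm4063) mutation with an unc-119(+) rescue and an integrated transgene, wgIs808, that carries ceh-58 with a TY1, EGFP and 3xFLAG tag on a fosmid. They were synchronised as starved L1 larvae after bleaching, and sonicated chromatin of 200 to 800 bp was precipitated with an antibody to GFP. No heat treatment is named in the labels, nor is the promoter of the transgene, and whole animals mix all cell types, with and without the fusion. Peak lists hold no expression values, so the levels of the chaperone RNAs and of the fusion cannot be read from them.

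Hsp70 proteins bind exposed hydrophobic stretches of unfolded or newly made polypeptides and release them in a cycle driven by ATP. Hsp90 proteins act later, on proteins that are nearly folded, such as kinases and receptors. Some Hsp70 genes are nearly silent until heat activates heat shock factor HSF-1, which binds alternating copies of the triplets GAA and TTC, while others are expressed at all times. The endoplasmic reticulum and the mitochondria have Hsp70 proteins of their own, whose genes respond to unfolded proteins in those compartments.

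Peaks found reproducibly in both replicates make up the conservative list of 483, and a looser call on pooled reads gave the optimal list of 732. Replicate 1's own list had 156 peaks and replicate 2's own list 92. A longer list of candidates, made by comparing the replicates, held 105945 entries of mostly low rank, and pooled reads and each replicate had similar lists. The authors gave every entry a signal, in a unit that the sources used here do not name, and a score of at most 1000 that rises as the irreproducible discovery rate falls. Read depth is unknown, so no counting error can be attached to a signal, and the only error available is the difference between the replicates. Signals are not scaled for depth here, and the control libraries were not analysed here.

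Of the 10 genes, 4 had a conservative summit in their window, namely F44E5.4, F44E5.5, hsp-1 and hsp-90, while 2.39% of all protein-coding genes had one. F44E5.4 and F44E5.5 share a peak, so the 4 genes stand for 3 peaks. In the optimal list hsp-3, hsp-4 and hsp-6 joined them, which made 7 of the 10 against 3.67% of all genes. Replicate 1's own list held summits of 3 of the genes (F44E5.4, F44E5.5 and hsp-1) against 0.786% of all genes, and replicate 2's own list held the same 3 against 0.391%. Among the 4568 genes whose windows were within the range of window lengths of the chaperone genes, 2.56% had a conservative summit and 4.14% an optimal one. Nothing is read from the contrast with these shares, since the genes were chosen with peaks in view. For hsp-70, hsp-110 and enpl-1 no thresholded list had a summit. The lowest score in the conservative list was 830. Among the 10 genes, the nearest peak inside it was that of hsp-1, at 917. The nearest of their candidates outside it scored 772 (1329 bp upstream of hsp-1) and 770 (hsp-4).

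**Figure D1:**
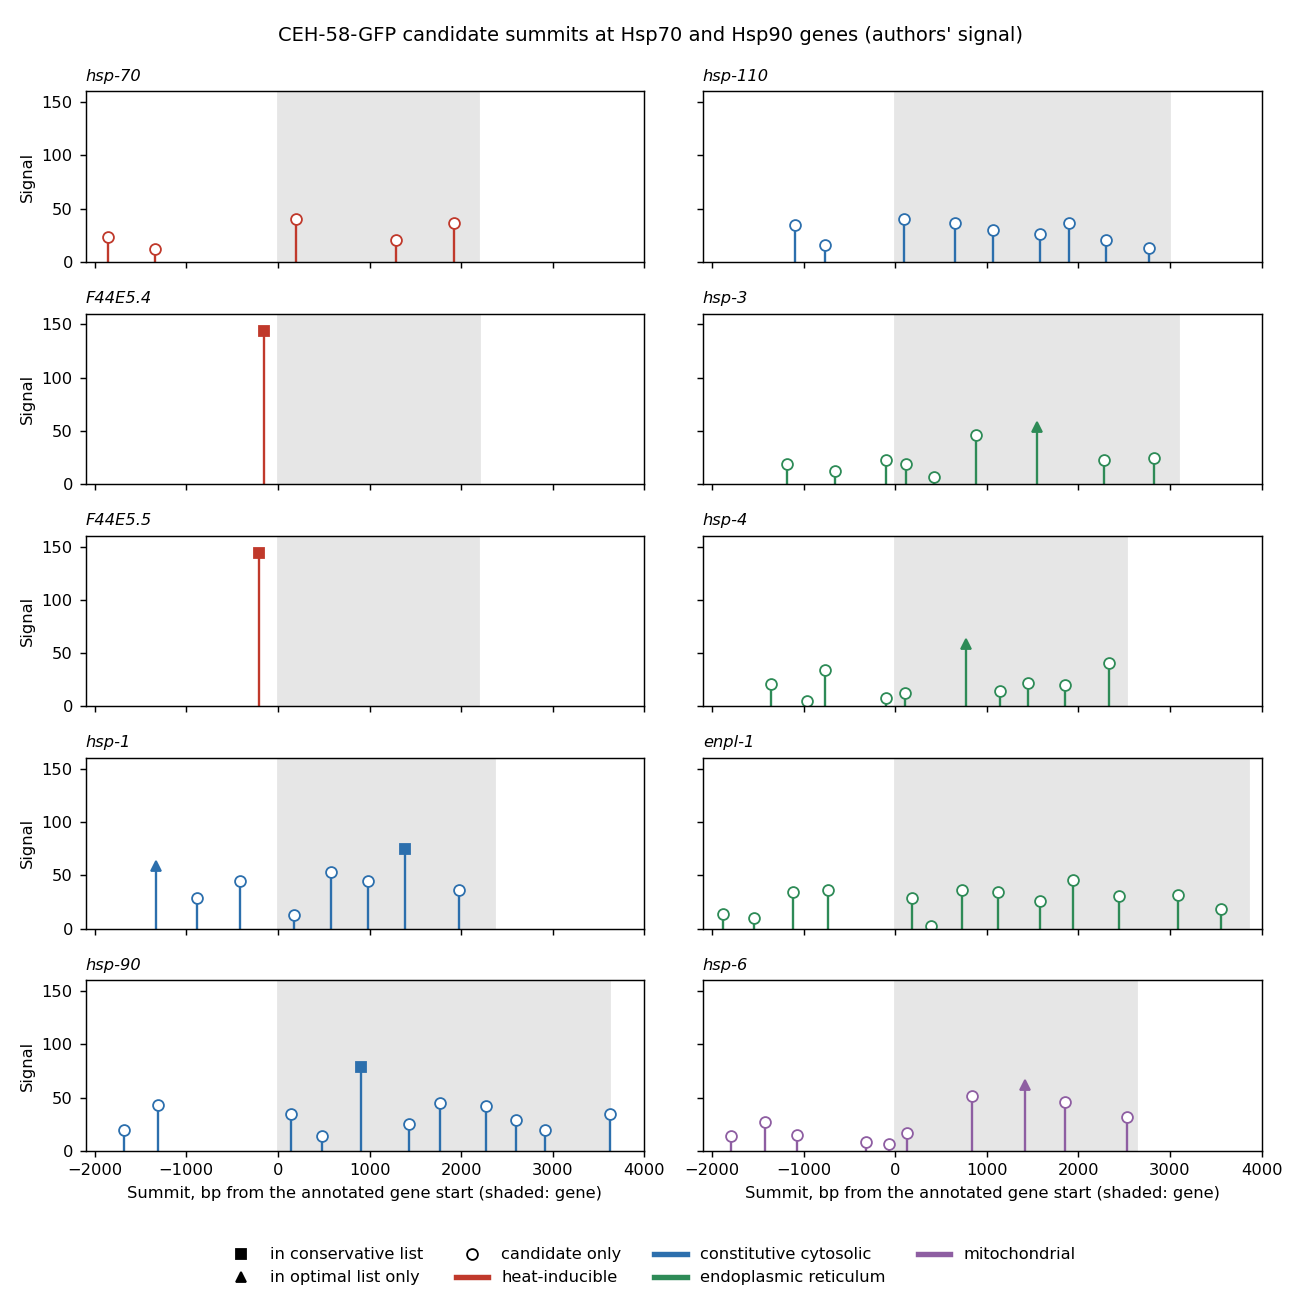
Candidate summits of the list that compares the replicates, plotted for each of the 10 genes by distance from the annotated start (x axis, bp) and authors' signal (y axis). Squares are in the conservative list, triangles only in the optimal list and open circles in neither, colours give the class and grey marks the gene. F44E5.4 and F44E5.5 have the same single peak of 143.9, and the other 8 genes have 5 to 13 candidates each, up to 79.09.

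Among the heat-inducible genes, F44E5.4 and F44E5.5, both annotated by RefSeq as Heat shock protein 70, lay head to head on chromosome II. F44E5.4 runs leftward (chrII:11757107-11759311, minus strand) and F44E5.5 rightward (chrII:11759662-11761861, plus strand), and 350 bp separate their starts. Their shared peak (chrII:11759342-11759577, ce11) had its summit at 11759460, which is 149 bp upstream of F44E5.4 and 202 bp upstream of F44E5.5. In replicate 1's own list the peak had a signal of 84.09 and in replicate 2's own list 61.91, for a mean of 73.0 ± 15.7 (SD, n = 2). In the conservative and optimal lists its signal was 143.9 with the maximum score of 1000. It was thus a high peak in every list, at rank 19 of 483, 20 of 732, 20 of 156 and 21 of 92 by signal. Only 0.115% of the 19973 protein-coding genes had a higher candidate.

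The sequence of this peak is shown because it holds 236 of the 350 bp between the genes and a dense run of heat shock triplets. It is the plus strand of ce11, read from the reference assembly WBcel235, and capitals mark every match to TTCNNGAA or GAANNTTC, with overlapping matches joined.
F44E5.4 and F44E5.5 peak: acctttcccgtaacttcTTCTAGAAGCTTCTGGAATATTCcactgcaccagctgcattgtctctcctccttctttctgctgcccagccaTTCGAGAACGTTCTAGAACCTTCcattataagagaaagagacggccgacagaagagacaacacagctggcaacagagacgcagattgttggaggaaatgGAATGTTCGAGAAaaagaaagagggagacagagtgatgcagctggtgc

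The peak held 10 such 8-base cores, 5 of each form, in 3 blocks. Cores of a block overlap by sharing a triplet, and both forms are palindromes, so the same matches are read on either strand. Their centres lay 97 to 82 bp left of the summit (4 cores), 25 to 10 bp left of it (4 cores) and 74 and 79 bp right of it (2 cores). There were 7 overlapping runs of 3 alternating triplets at a 5 bp step. In the conservative list as a whole, 24.2% of the 483 peaks had a core and 4.76% a run of 3 triplets. TAATTA, a palindrome bound by many homeodomain proteins, was not found in the peak, and 4.76% of all conservative peaks had it. A match describes the letters only, and binding by HSF-1 was not measured.

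No other candidate lay in the windows of the F44E5 pair, in any of the 4 candidate lists. In the list between replicates the next summits were 2715 bp away on the F44E5.4 side and 3646 bp away on the F44E5.5 side. Pooled reads had candidates at 2805 and 3191 bp on the F44E5.5 side, replicate 1 had a candidate there at 3180 bp, and replicate 2 had a candidate at 2588 bp on the F44E5.4 side, all beyond the gene ends. The coding sequences of the pair were identical over all 1935 bp, and the whole genes matched at 2193 of 2195 aligned bp (99.9%). Against hsp-70 the coding sequence of F44E5.4 matched at 80.6% and against hsp-1 at 67.7%. The BiP genes hsp-4 and hsp-3 matched at 77.6%, and hsp-90 and enpl-1 at 63.1%. Of the 31-base words (31-mers) of F44E5.4, 1.81% were found once in the genome, and of those of F44E5.5 2.77%. Between the genes 73.7% were found once, and within 100 bp of the summit 95.5%. A run of 226 bp in which every 31-mer was found once (chrII:11759369-11759594) overlapped the peak. Reads from the gene copies cannot be assigned to a single copy, and the sources used here do not say how the authors treated such reads. The absence of candidates in the 2 gene bodies is therefore not a measurement of absent CEH-58. Of 187 genes with windows as repetitive as theirs or more so, 150 had no candidate, 37 had at least 1, and the 2 with a conservative summit were F44E5.4 and F44E5.5.

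**Figure D2:**
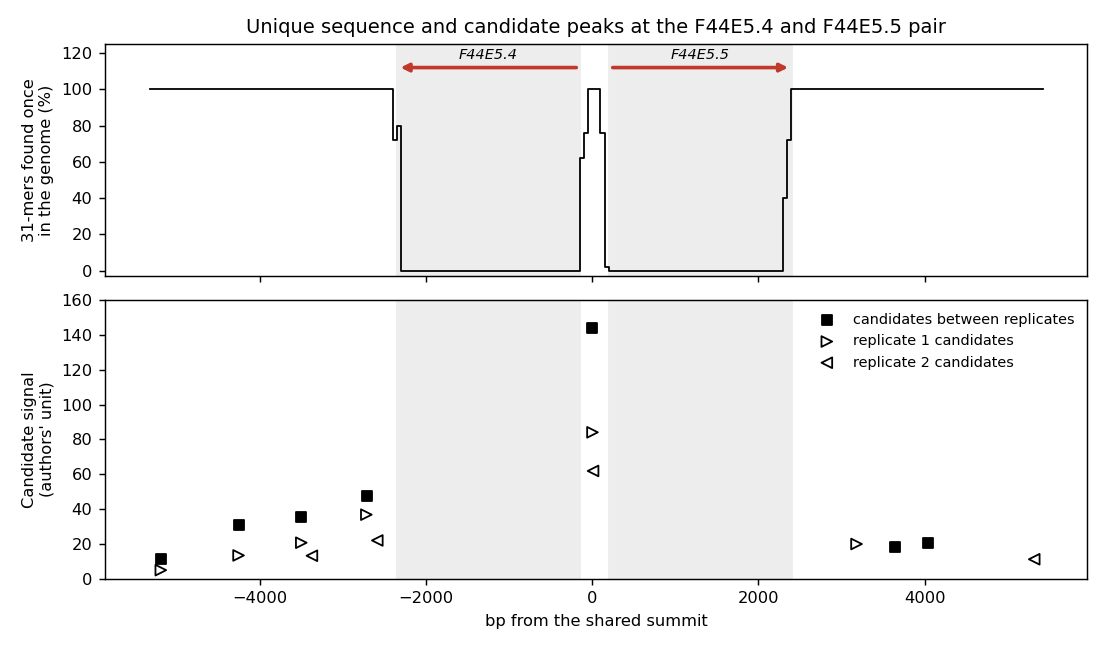
The F44E5 pair, by distance from the shared summit (x axis, bp), with the genes in grey and arrows in the direction of transcription. The upper panel gives the percentage of 31-mers found once in the genome in bins, and the lower panel the authors' signal of candidates between the replicates (squares) and among each replicate's own candidates (triangles). Candidates are missing where no 31-mer is unique, and the peak of 143.9, with 84.09 in replicate 1 and 61.91 in replicate 2, stands in the unique stretch between the genes.

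The remaining heat-inducible gene, hsp-70 (minus strand), a cytosolic Hsp70 that is strongly induced by heat, had 5 candidates and no peak in a thresholded list. Its highest candidate lay 194 bp downstream of the start in the second coding exon and had a signal of 39.95 and a score of 264. There replicate 1 had a candidate of 26.11 and replicate 2 a candidate of 13.48, a mean of 19.8 ± 8.93 (SD, n = 2). A higher candidate was found in 33.3% of genes. The others were at 36.87 and 20.52 in the last exon and at 22.94 and 11.75 upstream. All 5 summits also lay inside the overlapping gene uggt-2. In contrast to the F44E5 pair, 99.95% of 31-mers in the hsp-70 window were found once, so low signal there was measured in unique sequence. The heat-inducible class thus held both the highest and the lowest of the 10 values, 143.9 and 39.95.

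The constitutive cytosolic genes were hsp-90, hsp-1 and hsp-110. HSP-90 is the cytosolic Hsp90 of the worm, and its gene (chrV:14684918-14688545, plus strand) has 2 annotated transcript starts, 1242 bp apart. The conservative peak (chrV:14685705-14685940) had its summit 905 bp downstream of the first start, in an intron of the longer transcript, and 337 bp upstream of the second start, which is the start RefSeq gives. Its candidate signals were 44.36 in replicate 1 and 32.75 in replicate 2, a mean of 38.55 ± 8.21 (SD, n = 2), and 79.09 in the conservative list with a score of 1000. It ranked 163 of 483 there. The scores within single replicates, 704 and 331, were under the lowest of their thresholded lists, 832 and 833, so hsp-90 was missing from both replicates' thresholded lists. All 31-mers around the summit were found once, and 0.876% of genes had a higher candidate.

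This sequence is shown because it lies in front of the second hsp-90 start. It is the plus strand of the same assembly, with matches to TTCNNGAA or GAANNTTC in capitals.
hsp-90 peak: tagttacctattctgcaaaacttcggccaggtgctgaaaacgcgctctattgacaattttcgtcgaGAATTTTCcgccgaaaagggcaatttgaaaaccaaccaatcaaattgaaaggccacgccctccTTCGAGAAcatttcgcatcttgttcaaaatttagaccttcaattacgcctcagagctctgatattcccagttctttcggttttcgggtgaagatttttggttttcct

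It held 2 separate cores, 48 bp left and 15 bp right of the summit, with no run of 3 triplets and no TAATTA. Of the 10 other candidates in the hsp-90 window, the next was 44.69 in a coding exon 1766 bp downstream of the first start, and its replicate signals were uneven, 5.244 and 34.02. Between the replicates the top candidate was 1.77 times the next one. In replicate 1's candidates it had 44.36 beside 43.45 at 3356 bp downstream, and in replicate 2's candidates its 32.75 was below 37.36 in the 3-prime UTR and 34.02 at 1769 bp. Candidates at the upstream edge, 42.6 and 19.52, lay inside C47E8.3.

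HSP-1 is the constitutive Hsc70, an abundant cytosolic chaperone. Its gene (chrIV:17278959-17281330, plus strand) had a conservative peak (chrIV:17280223-17280458) with the summit 1382 bp downstream of the start, in the third of 4 exons. The signal was 49.77 in replicate 1's own list and 25.04 in replicate 2's own list, a mean of 37.4 ± 17.5 (SD, n = 2). The signal in the conservative list was 74.72, at rank 215, and 1.19% of genes had a higher candidate. In replicate 2's list it was 90 of 92 by signal and had that list's lowest score, 833. The ratio of the first to the second replicate column was 1.987, and 26 of the 483 conservative peaks had a higher one. The same ratio was 1.358 for the F44E5 peak and 1.355 for the hsp-90 peak, inside the quartiles of all conservative peaks, 0.9901 to 1.456, around a median of 1.22. An snoRNA gene, F26D10.24 (chrIV:17280046-17280169, plus strand), lies inside hsp-1, 172 bp from this summit and 104 bp from another hsp-1 candidate of 44.7. Whether it plays a part in the hsp-1 signal was not tested.

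The hsp-1 sequence is shown as the counterpart inside a coding exon, on the plus strand and without any match to mark.
hsp-1 peak: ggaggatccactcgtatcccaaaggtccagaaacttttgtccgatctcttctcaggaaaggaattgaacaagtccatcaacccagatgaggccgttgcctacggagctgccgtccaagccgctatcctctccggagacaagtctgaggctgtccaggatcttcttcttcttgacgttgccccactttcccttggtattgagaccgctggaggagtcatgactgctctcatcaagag

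Neither core form and no TAATTA occurred in it. A further hsp-1 window peak was in the optimal list only, at 59.03, and its summit lay 1329 bp upstream, inside the neighbouring C-type lectin gene clec-196. Closer to the start, a candidate 410 bp upstream had 44.86 with replicate column signals of 34.43 and 22.09.

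HSP-110 is a large Hsp70 relative that exchanges nucleotide on other Hsp70 proteins. The 9 candidates of its gene (chrIII:8443910-8446909, minus strand) were all at or under 40.67, and the highest lay 96 bp downstream of the start in the first exon. Replicate 1's own candidate there had 15.57 and replicate 2's own 23.53, a mean of 19.55 ± 5.63 (SD, n = 2). A higher top candidate was found in 30.9% of genes. The constitutive class therefore spanned 40.67 to 79.09.

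The genes of the endoplasmic reticulum (ER) were hsp-3, hsp-4 and enpl-1. HSP-3 and HSP-4 are the worm's BiP proteins, the Hsp70 of that compartment, and HSP-4 is induced when unfolded proteins accumulate there. The hsp-4 gene (chrII:7350112-7352645, minus strand) had its highest candidate (chrII:7351750-7351985) 777 bp downstream of the start, in the third of 6 exons, with 35.18 among replicate 1's candidates and 24.45 among replicate 2's (mean 29.8 ± 7.59, SD, n = 2). Its signal between the replicates was 58.67 with a score of 770, and the optimal list held it at a score of 867. At hsp-3 (chrX:6089028-6092124, minus strand) the highest candidate (chrX:6090462-6090697) lay 1544 bp downstream, in the third of 4 exons, with 28.51 in replicate 1 and 24.77 in replicate 2 (mean 26.6 ± 2.65, SD, n = 2). It had 53.66 between the replicates and an optimal score of 875. ENPL-1, the endoplasmin of the worm and the Hsp90 of this compartment, had 13 candidates in its window (gene at chrIV:11119298-11123155, plus strand), more than any other of the 10 genes. The highest, 45.15, lay 1942 bp downstream in a coding exon. No candidate of replicate 1 overlapped it, and replicate 2 had a candidate of 26.71. Both BiP genes have 3 annotated transcript starts. The hsp-3 peak lay 109 bp upstream of the innermost one, and the hsp-4 peak 539 bp upstream of its innermost one. Nearest to the outermost starts the candidates had 22.3 at 105 bp upstream of hsp-3, and 7.608 at 96 bp upstream and 12.17 at 107 bp downstream of hsp-4. A further hsp-4 candidate, 762 bp upstream, had 34.5.

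HSP-6, the only mitochondrial member examined, is the Hsp70 of that organelle, and its gene (chrV:4824124-4826760, minus strand) had 10 candidates. The highest (chrV:4825226-4825461) lay 1416 bp downstream of the start, in the third of 4 exons. It had 45.71 among replicate 1's candidates and 18.83 among replicate 2's, a mean of 32.3 ± 19.01 (SD, n = 2). The replicates were further apart here than at any other top candidate measured in both. In replicate 2 the candidates at 862, 1848 and 2412 bp downstream were higher, with 27.77, 23.92 and 20.4. The candidate at 842 bp, with 51.8 between the replicates, had even replicate columns of 26.52 and 27.77. The highest candidate, at 1416 bp, had a signal between the replicates of 61.83 with a score of 582, and the optimal list held it at 927. Within 1000 bp upstream and 200 bp downstream of the start, no hsp-6 candidate passed 16.57.

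By highest candidate the order was F44E5.4 and F44E5.5 (143.9), hsp-90 (79.09), hsp-1 (74.72), hsp-6 (61.83), hsp-4 (58.67), hsp-3 (53.66), enpl-1 (45.15), hsp-110 (40.67) and hsp-70 (39.95). The median of the 10 genes was 60.25, while over all genes with a candidate the median was 36.32 and the quartiles 29.66 and 43.61. The F44E5 peak was above the other 8 genes in both replicates, since its lower replicate signal, 61.91, exceeded the highest of the rest, 49.77 at hsp-1. From hsp-90 down to hsp-70, the replicate signals of each gene overlapped those of its neighbour in the order, with the replicate columns used for enpl-1. The ranges of their replicate signals thus do not separate these neighbours, though the ranges also hold any difference in scale between the replicates. Compared within each replicate, hsp-1 was above hsp-6 in both (49.77 and 45.71, then 25.04 and 18.83). So was enpl-1 above hsp-110 (16.55 and 15.57, then 26.71 and 23.53). The other neighbours from hsp-90 down changed order between the replicates. Further apart, both replicate signals of hsp-90 lay above both of hsp-3, enpl-1, hsp-110 and hsp-70, and both of hsp-1, hsp-4 and hsp-3 lay above both of hsp-110. The peak with the highest signal between the replicates was also the highest of its window in each replicate for 3 genes, F44E5.4, F44E5.5 and hsp-4. By class, the ER genes lay between 45.15 and 58.67, hsp-6 just above them, and the constitutive and heat-inducible genes on both sides.

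**Figure D3:**
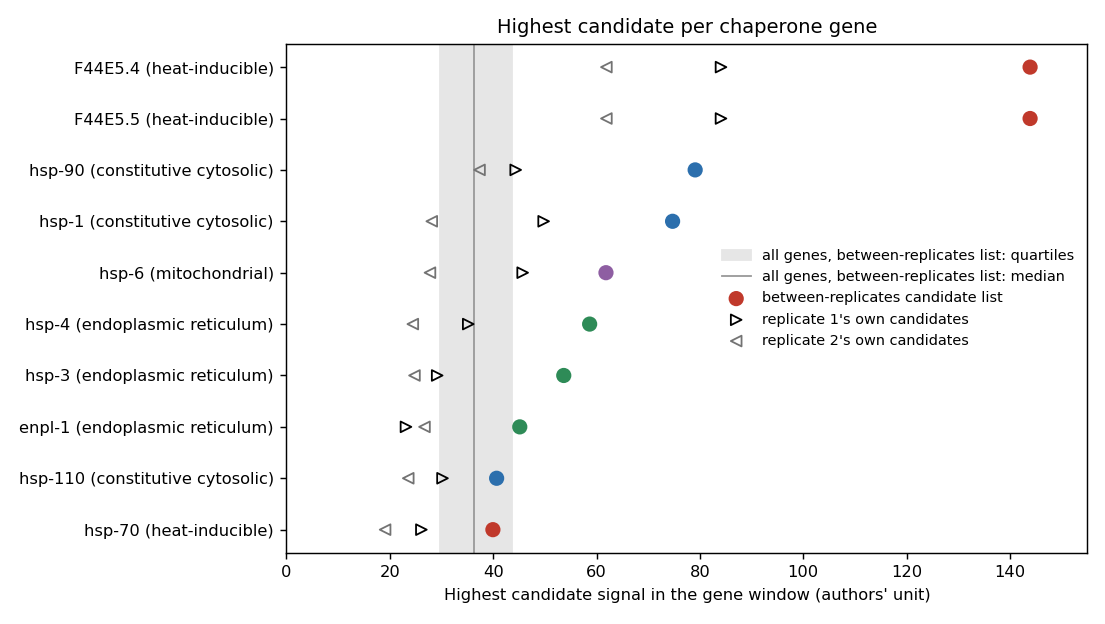
Highest candidate signal in the window of each of the 10 genes (x axis, authors' unit), for the list between replicates (filled circles, coloured by class) and for each replicate's own candidates (triangles), where the highest need not be the same peak. The grey band and line give the quartiles, 29.66 and 43.61, and the median, 36.32, of all genes in the list between replicates. The F44E5 pair stands at 143.9, and hsp-110 and hsp-70 lie inside the band.

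**Figure D4:**
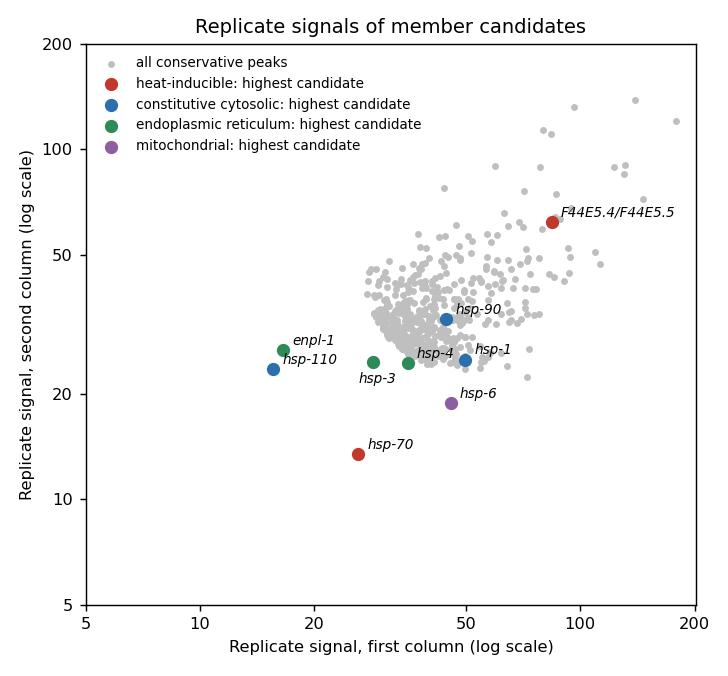
Signal in the first (x axis) and second (y axis) replicate column, both on log scales, for the highest candidate of each gene, coloured by class, and for all 483 conservative peaks in grey. The F44E5 peak at 84.09 and 61.91 lies among the high peaks, and hsp-90 lies within the main cloud. The hsp-1 peak at 49.77 and 25.04 lies at the lower edge of the cloud, and hsp-70 at 26.11 and 13.48 lies outside it.

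The plot of replicate signals also shows which conservative peaks resembled those of the chaperone genes over the 2 replicate columns. Nearest to the F44E5 peak among 377 peaks at other genes were those at eif-3.G and lips-10 (149.8, log2 distance 0.08), at fezf-1 (143.2, 0.11) and at rnf-113, tasp-1 and K01G5.10 (136.5, 0.25). At the fezf-1 summit only 15.4% of 31-mers were found once, so that gene is uncertain. Closest to the hsp-90 peak, among 376, were C14B9.10 (72.41, 85.1% of 31-mers found once), tos-1 (73.77, 67.2% found once) and cmd-1, the calmodulin gene (67.32). The hsp-1 peak was nearest to mcm-4, a subunit of the replicative helicase (78.75), Y54G2A.26 (75.15) and nlp-53 (68.25), among 377. Likeness was measured over these 2 columns only.

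Position within the gene was shared by most of the 10 without being part of the choice. The highest candidate lay inside the gene, from its outermost start to its end, for 8 genes and in a coding exon for 7, while over all genes with a candidate these shares were 55.01% and 33.2%. Of the 8, the summits of hsp-90, hsp-3 and hsp-4 were also upstream of an internal start, by 337, 109 and 539 bp. Gene bodies took up 58.1% of the windows of the 10 and 61.7% of those of all genes. The share taken up by coding exons was not measured, so the coding-exon contrast is not adjusted for it. Among the 76 distinct candidates of the 10 windows, the 50 inside the genes had a median signal of 31.53 and the 26 upstream 20.38. Base composition moved with this, with median GC within 50 bp of the summit of 45.5% inside the genes and 38.6% upstream. In all protein-coding windows the medians were 22.35 inside any gene body and 21.17 outside all of them, at GC of 40.6% and 37.6%. For the 10 genes, inside meant the gene's own body, so candidates within a neighbouring gene counted as upstream. The contrasts are thus not like for like. Over the 76 candidates, which share libraries and partly genes, log2 signal and GC were correlated at r = 0.328 (Pearson) and rho = 0.321 (Spearman), and r was 0.251 over the candidates of all protein-coding windows. What part base composition plays in the signal was not tested.

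Candidates were dense in most of these genes and sparse at the F44E5 pair. The 8 other genes together had 1.907 candidates per kb, ranging from 1.19 at hsp-70 to 2.22 at enpl-1, against a median of 1.193 over all genes, and the pair had 0.238 per kb each. Neighbouring candidates were 442 bp apart at the median, with a range of 201 to 1538 bp, so many lie within the length of 1 sonicated fragment of each other and may not be separate. By class, the median candidate was 29.91 over 6 heat-inducible candidates, 34.32 over 28 constitutive, 22.68 over 32 ER and 21.67 over 10 hsp-6 candidates. Over all 76 it was 28.33, and over all protein-coding windows 22.1.

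Heat shock cores were also counted in the promoters, from 500 bp upstream to 100 bp downstream of the outermost annotated start, on both strands. A core, TTCNNGAA or GAANNTTC, was found at 8 of the 10 genes and at 55.01% of all starts. Runs of 3 alternating triplets were found at 7 of the 10 and at 3.84% of all starts. The F44E5 pair had 14 cores and 10 runs, in sequence that both promoters share. At hsp-90 there were 5 cores and 2 runs by the first start, and 3 cores and no run by the second, RefSeq start. Counts were 4 cores and 1 run for hsp-70, 4 and 2 for hsp-110, 3 and 1 for hsp-1, 2 and 1 for hsp-6, and 2 and 0 for hsp-4. Neither hsp-3 nor enpl-1 had a core in this window. TGACGTG, a form of the site bound by factors of the ER unfolded protein response in mammals, was found at hsp-3, hsp-4 and hsp-110, and at 5.41% of all starts. The homeodomain palindrome TAATTA was found at hsp-90 alone among the 10, by its first start and not by the RefSeq start, and at 28.7% of all starts. Over whole windows, hsp-70 and hsp-110 had runs and the lowest signals of the 10. From 1000 bp upstream to 200 bp downstream of the start, their highest candidates were 39.95 and 40.67. There the genes without runs had 36.14 (enpl-1), 34.5 (hsp-4) and 22.3 (hsp-3). Of the other genes with runs, F44E5.4 and F44E5.5 had 143.9 in that window, hsp-1 44.86, hsp-90 34.24 and hsp-6 16.57. Whether runs of triplets and peak signal go together was not tested.

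Other chaperone genes, 72 in all, were described for comparison. A conservative summit lay in the windows of 4 of the 10 Hsp70 and Hsp90 genes, of 4 of these 72 and of 2.39% of all genes. The 4 others were dnj-13, bag-1, dnj-28 and hip-1. The summit of dnj-13, a J-domain partner of Hsp70, had 81.52 and lay 252 bp upstream, also inside the neighbouring gene dhgd-1. That of the Hsp70 nucleotide exchange factor gene bag-1 had 67.08, 148 bp upstream. The J-domain gene dnj-28 had 64.85, 138 bp upstream. For hip-1, which encodes a cofactor of Hsp70, a summit of 63.12 lay 1853 bp upstream, inside taf-9. Another hip-1 summit, 40.81, lay 1206 bp downstream of the start, inside both hip-1 and T12D8.9. The peak at dnj-28 lay where 71.6% of 31-mers were found once. The optimal list did not hold the bag-1 summit. It kept summits of the other 3 and had summits of pph-5, the gene of an Hsp90-bound phosphatase (63.86, 16.42% of 31-mers found once) and of the small heat shock gene hsp-12.3 (57.03, near the RNA gene F38E11.11). Replicate 1's own list added sip-1 (58.39) and hsp-60 (51.36), and replicate 2's own list held none of the 72. Among replicate 2's candidates the sip-1 peak had 38.91, while the hsp-60 peak had no value. By any overlap, a conservative peak also reached the sip-1 window, with its summit outside. None of the 14 small heat shock genes, 9 chaperonin genes or 10 genes of stress regulators had a conservative summit. The median highest candidate was 60.25 over the 10 genes, against 40.31 over the 72. The 10 were chosen with peaks in view and the F44E5 peak counts for both of its genes, so nothing is read from the contrasts with the 72.

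The hsp-16 genes, chosen for mention after their values were seen, are heat-inducible genes in divergent pairs like the F44E5 genes. Both copies of hsp-16.1 and 1 copy of hsp-16.48 had no candidate, and 17.6% to 29.35% of the 31-mers in their windows were found once. The other hsp-16.48 copy had 2 candidates, up to 34.15. In the more unique windows of hsp-16.2 (90.4%) and hsp-16.41 (97.15%), the highest candidate was 31.01. No hsp-16 value came near the 143.9 of the F44E5 pair.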

How the data were processed

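CEH-58-GFP ChIP-seq peaks came from 2 biological replicates, per the labels, on assembly ce11. The authors deposited 4 thresholded and 4 candidate lists, in which each peak has a score (a scaled log of the irreproducible discovery rate, at most 1000), a signal, and a −log10 q-value that was not used here. The sources used here name neither the unit of the signal nor the aligner and peak caller. No list extended beyond a chromosome of the reference (WBcel235). Read depth is not given, so precision rests on 2 replicates.

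Gene windows ran from 2 kb upstream of the Ensembl release 115 start to the gene end, for protein-coding genes. Replicate 1 and 2 signals came from each replicate's own candidates that overlapped a peak by at least 1 bp. The candidate list also has an unnamed pair of replicate columns, used as a first and a second column. Of 101071 distinct entries in the first, 48568 were in replicate 1's list and 0 in replicate 2's. Unique sequence was the share of 31-mers found once in the genome, within 100 bp of a summit unless a gene or window is named. Coding sequences were aligned globally with Biopython 1.88. Python 3.11.15, numpy 2.4.6, pandas 2.3.3, scipy 1.17.1 and matplotlib 3.10.9 were used, and the counting steps were tested on simulated data.

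The genes, classes and lists were chosen with earlier results of these data known, so no test was made. Named were all 10 genes, up to 10 other chaperone genes with a summit in a thresholded list, and, for each conservative peak of the 10, the 3 conservative peaks at other genes with the nearest log2 replicate signals. Of the other chaperone names, 2 had no match, hsp-16.11 and hsp-16.49, whose copies carry the names hsp-16.1 and hsp-16.48. Alternatives were other lists, windows and overlap rules and single replicates. Counts of distinct peaks, of peaks away from RNA genes and of promoters of any transcript were added after the data were seen.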

Additional observations from a re-analysis of the deposited data

How the results depend on the processing

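The count of Hsp70 and Hsp90 genes with a conservative summit, 4, was 7 in the optimal list, 2 with the promoter window alone (F44E5.4 and F44E5.5) and 2 with the gene body alone (hsp-1 and hsp-90). It was 3 in either replicate's own list, 3 among peaks of the maximum score, 3 as distinct peaks, 3 away from RNA genes, 3 at promoters of any transcript, 4 with 1 kb upstream and 5 by any overlap, with hsp-110 added. For the other chaperone genes, 4 became 1 with the gene body alone, 7 by any overlap, 1 among peaks of the maximum score, and 0 to 2 with a single replicate. Single replicates gave 61.91 to 84.09 for the F44E5 peak, against 143.9 in the conservative list, and 32.75 to 44.36 for the hsp-90 peak, against 79.09. Conservative signals were close to the sum of the 2 replicate columns, at a median of 0.993 of that sum. The median highest candidate of the 10 genes was 60.25, with 38.05 in the promoter window alone and 27.24 to 39.77 in single replicates. Candidates per kb over the 10 windows were 1.613, with 1.655 in pooled reads, 1.67 with 1 kb upstream and 1.069 to 1.09 in single replicates, against 1.105 over all protein-coding windows, or 1.195 in pooled reads, 0.634 in replicate 1 and 0.616 in replicate 2. Heat shock cores were found at 8 promoters, or 7 in the shorter window. Of 45 values for single genes with a replicate spread, 22 moved by less than it and 23 by more, and 5 values of enpl-1 had no spread. Values from pooled reads were identical to the main ones. Single-replicate values were set against signals close to the sum of both replicates, so they were lower by scale. The tally is therefore not a measure of stability. With promoter windows alone, the highest candidates of the BiP genes were 22.3 (hsp-3) and 34.5 (hsp-4), and that of hsp-6 was 16.57. No paired analysis was possible because there is a single group. Read depth, 2 replicates and repeated sequence at the F44E5 pair limit what these lists can show, and genes are assigned by position only.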
